A study of Marchantia polymorpha with 18 samples.

Results

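In the liverwort Marchantia polymorpha, 137 genes stood at lower transcript levels in unwounded plants of both the mutant Mpcoi1 and the double mutant Mpdes6fad5 than in unwounded plants of the male wild-type accession Tak-1. They were chosen by that difference, out of 13220 genes that reached a CPM of 1 (CPM, read counts scaled to library size) in at least 3 of 18 libraries. A member had a group mean of log2(CPM + 1) that differed from mock Tak-1 by -0.7 or less in mock Mpcoi1 and by -0.7 or less in mock Mpdes6fad5. The first condition held for 237 genes (1.79%), the second for 593 (4.49%) and both for 137 (1.04%). The mock differences are therefore given as a description and carry no test.

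Transcript levels were measured by RNA sequencing. There were 6 groups of 3 replicates: mock-treated and tweezer-wounded plants of Tak-1, of Mpcoi1, which carries a mutation in the jasmonate receptor gene MpCOI1, and of Mpdes6fad5, which carries mutations in the fatty acid desaturase genes MpDES6 and MpFAD5. All plants grew for 3 weeks on agar with Gamborg B5 medium, each replicate pooled 6 to 8 plants, and the age of the wounds is given as 2 hours in one label and as 90 min in the protocol. The tissue is labelled as leaflets, while the protocol names apical fragments without gemma cups, and the kind of mutation and the number of independent lines behind each mutant are not stated in the sources used here.

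Jasmonate signalling is the pathway by which land plants answer wounding and herbivores. Lipoxygenases oxygenate polyunsaturated fatty acids, and the products are turned into oxylipin hormones. In Marchantia the hormone is a form of dinor-OPDA, which binds the receptor COI1 together with a JAZ repressor, leads to the removal of JAZ and so frees transcription factors. Desaturases supply the polyunsaturated fatty acids at the start of the route, so Mpcoi1 is a mutant of perception and Mpdes6fad5 a mutant of precursor supply. Part of the pathway's output in plants is defence chemistry: phenolics made through phenylalanine ammonia-lyase and chalcone synthase-type enzymes, their oxidation by peroxidases and polyphenol oxidases, and terpenoids.

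The depth was 19382332 to 26303510 reads in genes per library, so a count of 0 has an upper limit of 0.107 to 0.158 CPM by counting error alone, depending on the library. The targeted gene MpCOI1 stood at 84.1 to 90.9 CPM in mock Tak-1 plants, and its mock Mpcoi1 range was 23.6 to 27.0 CPM. In mock Mpdes6fad5, MpDES6 stood at 43.8 to 48.8 CPM against 59.9 to 73.4 CPM in mock Tak-1, and MpFAD5 at 252 to 304 CPM against 423 to 495 CPM. None of these 3 genes was a member. Libraries within a group differed over the members: wounded Tak-1 replicate 3 was the lowest of its group for 85 of the 137, wounded Mpcoi1 replicate 3 for 79 and mock Tak-1 replicate 2 for 72, and mock Mpdes6fad5 replicate 1 was the highest for 73. When wounded Tak-1 replicate 3 was left out, 22 further members were called in Mpcoi1 and 3 lost their call. The counts against Tak-1 over all members are therefore given without it as well. Of the tests of named genes that it changes, a part is given without it. Counts by family use all libraries. Of the 37 genes of the male V chromosome that were tested, 36 or 37 had a read in all 3 libraries of each group, and none was a member.

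Across the 137 members the median of the group means was 8.66 CPM in mock Tak-1, 2.40 CPM in mock Mpcoi1 and 1.60 CPM in mock Mpdes6fad5. Over all 13220 genes the same medians were 26.3, 26.2 and 26.6 CPM, so the members were weakly expressed genes for the most part, and 46 of them had a mock Tak-1 mean under 5 CPM. The median mock difference was -1.11 on the log2 scale for Mpcoi1 and -1.29 for Mpdes6fad5, and Mpdes6fad5 had the lower mock level of the mutants for 89 members. All 6 mock mutant libraries lay below all 3 mock Tak-1 libraries for 127 members (9.24% of all genes), a count that follows from the choice of members. All 6 wounded mutant libraries lay below all 3 wounded Tak-1 libraries for 75 members, against 7.43%. A functional symbol was held by 58 members (42.3%) and by 19.0% of all genes tested. For 15 members a single mock Tak-1 library held over 50% of the group's summed CPM. In whole-tissue RNA, fewer cells of a type and less RNA per cell cannot be told apart.

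**Figure D1:**
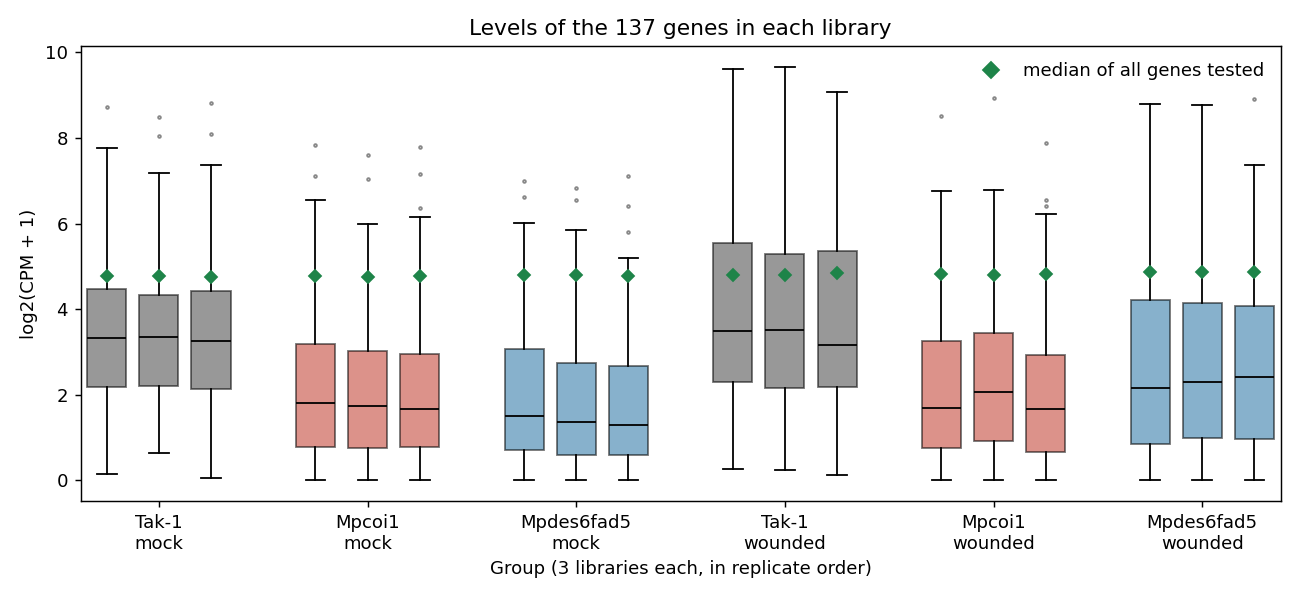
Distribution of log2(CPM + 1) over the 137 genes in each of the 18 libraries (boxes: quartiles and median, whiskers to the usual limit, points beyond them), with the median of all 13220 genes as a green diamond. The members' boxes sit lower in the mock mutant libraries, as the choice of members requires, and the mutants' boxes are also low in the wounded libraries; the diamonds stay level.

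The threshold cut through a continuous range. The members nearest to it were the peroxidase gene MpPOD91, with mock differences of -1.11 for Mpcoi1 and -0.70 for Mpdes6fad5, Mp8g03380, with -0.89 for Mpcoi1 and -0.71 for Mpdes6fad5, and the dirigent gene MpDIR18, with -0.89 for Mpcoi1 and -0.71 for Mpdes6fad5. The genes just outside were Mp1g09710 with -0.70 and -0.81, Mp8g16670 with -0.69 and -1.15, and the dirigent gene MpDIR37 with -0.69 and -0.99, in the same order of mutants. MpJAZ, the repressor gene of the pathway, had mock differences of -0.64 and -0.53 and was not a member.

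The wounded libraries had no part in the mock differences that chose the members, so the same genes were compared there. In a limma fit of the 9 wounded libraries over all 13220 genes, 90 of the 137 members were lower in wounded Mpcoi1 than in wounded Tak-1 at a Benjamini-Hochberg adjusted p under 0.05, against 9.5% of all genes. In wounded Mpdes6fad5, 100 members were lower, against 22.5% of all genes, and 73 were lower in both wounded mutants, against 4.43%. No member was called higher in either mutant, against 23.9% of all genes. Of the members, 1 had an unadjusted p under 0.05 for being higher. Limma-voom on the recovered reads also called 0, while 1 was called higher with all 18 libraries, with a constant of 5 CPM or with library totals. Without wounded Mpdes6fad5 replicate 3, 1 was called higher too. Both mutants were compared with the same 3 wounded Tak-1 libraries, so the 2 counts are not independent of each other. For 4 members, Mp2g18790 among them, the filter of 1 CPM in 3 libraries was reached only with the wounded Tak-1 libraries, so their Tak-1 level after wounding had to be high. Among the other 133 the counts were 87 lower in Mpcoi1, 97 in Mpdes6fad5 and 70 in both, a comparison added after seeing the data. Of the 13134 genes that passed the filter without wounded Tak-1, 9.33%, 22.4% and 4.33% were called in these ways. The median wounded difference of the members was -1.22 for Mpcoi1 and -0.94 for Mpdes6fad5, beside 0.03 and 0.01 over all genes. Of the other members, 17 were called lower in Mpcoi1 alone, against 4.06% of all genes. A further 27 were called lower in Mpdes6fad5 alone, a share of 19.7% beside 17.4% of all genes, and 20 in neither. Between the wounded mutants, 51 members were lower in Mpcoi1 than in Mpdes6fad5, against 21.0% of all genes, and 22 were higher, against 20.8%.

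Without wounded Tak-1 replicate 3 the counts were 109 lower in Mpcoi1, 106 lower in Mpdes6fad5 and 90 lower in both. These were the highest counts with a single wounded library left out, which ran from 71 to 109, 85 to 106 and 55 to 90. The share of all genes called without wounded Tak-1 replicate 3 is not given here. Under that setting 7 members were called higher in Mpdes6fad5, and they are described with the phenylpropanoid genes.

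**Figure D2:**
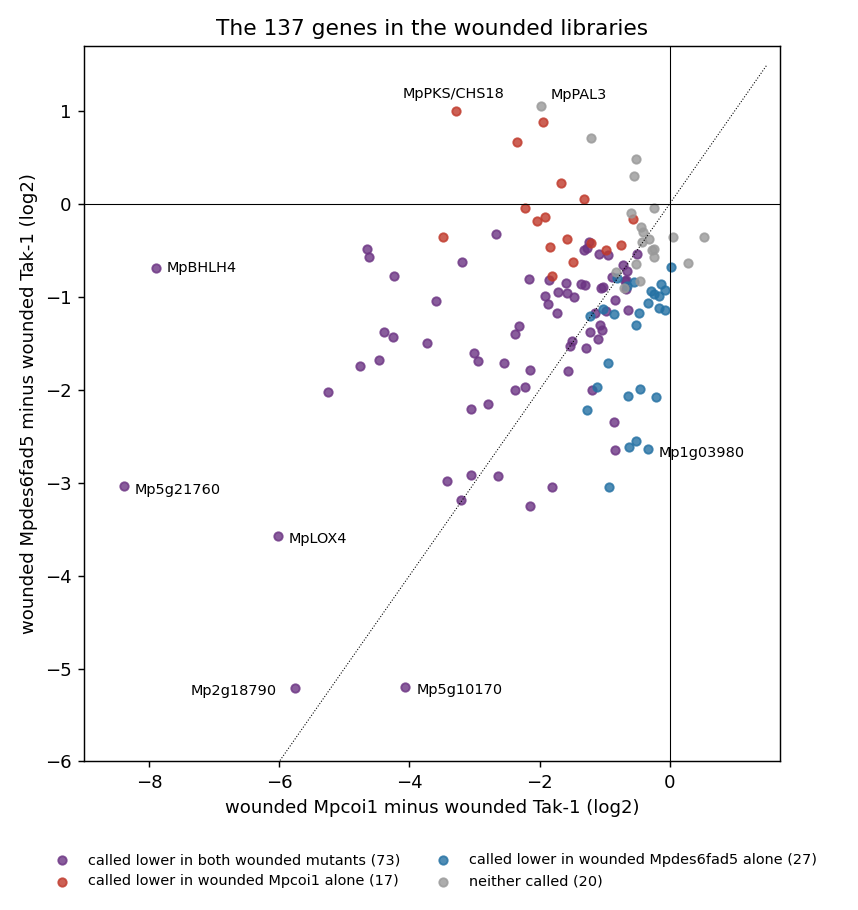
Each point is a member, placed by its log2 difference from wounded Tak-1 in wounded Mpcoi1 (horizontal) and in wounded Mpdes6fad5 (vertical), coloured by the limma call; the dotted line marks equal differences. Most points lie below and left of 0, MpBHLH4 and Mp5g21760 lie far to the left, and the axes share the same wounded Tak-1 libraries.

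The members with the largest mock differences stood low in both mutants in both states. Most of them had no functional symbol, as had most genes tested, of which 19.0% carried one. Mp5g10170, first in that order, had 45.9, 39.0 and 35.2 CPM in mock Tak-1 libraries, 0.416, 0.406 and 0.500 CPM in mock Mpcoi1, and 0.415, 1.18 and 0.424 CPM in mock Mpdes6fad5. After wounding it had 51.4, 65.1 and 40.7 CPM in wounded Tak-1, 2.18, 3.18 and 1.33 CPM in wounded Mpcoi1, and 0.752, 0.139 and 0.458 CPM in wounded Mpdes6fad5. The wounded groups did not overlap, and the difference from wounded Tak-1 was -4.06 ± 0.24 (SE, adjusted p = 7.99e-07) on the log2(CPM + 1) scale in Mpcoi1 and -5.20 ± 0.24 (SE, adjusted p = 6.89e-07) in Mpdes6fad5 (limma). Mp1g03240 had 11.2, 9.35 and 10.3 CPM in mock and 5.59, 8.04 and 12.3 CPM in wounded Tak-1, while no read fell on it in any of the 6 Mpcoi1 libraries. In Mpdes6fad5 it had at most 0.107 CPM in a library. Its log2 differences after wounding were -3.21 ± 0.22 (SE, adjusted p = 2.05e-06) and -3.19 ± 0.22 (SE, adjusted p = 4.29e-06) in Mpcoi1 and Mpdes6fad5, values that depend on the constant of 1 CPM.

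Mp6g06310 and Mp6g06320 are adjacent in the list of identifiers, as are Mp4g05930 and Mp4g05940, and all 4 genes were lower in both wounded mutants. Mp6g06320 had 13.1, 10.7 and 11.8 CPM in mock Tak-1 libraries, 0.453, 0.162 and 0.375 CPM in mock Mpcoi1, and 0.453, 0.285 and 0.141 CPM in mock Mpdes6fad5. The wounded libraries held 17.9, 18.6 and 3.96 CPM in wounded Tak-1, 0.256, 1.19 and 0.178 CPM in wounded Mpcoi1, and 0.177, 0.649 and 1.22 CPM in wounded Mpdes6fad5. Its Tak-1 libraries lay above all mutant libraries in both states, with wounded Tak-1 replicate 3 the lowest of the Tak-1 libraries. The wounded differences were -3.05 ± 0.48 (SE, adjusted p = 0.00156) in Mpcoi1 and -2.91 ± 0.48 (SE, adjusted p = 8.71e-04) in Mpdes6fad5. For Mp6g06310 they were -2.64 ± 0.42 (SE, adjusted p = 0.00168) and -2.93 ± 0.42 (SE, adjusted p = 3.73e-04), for Mp4g05940 -3.05 ± 0.27 (SE, adjusted p = 2.05e-05) and -2.21 ± 0.27 (SE, adjusted p = 1.42e-04), and for Mp4g05930 -2.38 ± 0.14 (SE, adjusted p = 9.12e-07) and -1.40 ± 0.14 (SE, adjusted p = 4.68e-05), always Mpcoi1 first. Mp8g16710 was better expressed, with 45.6, 47.1 and 41.1 CPM in wounded Tak-1 against 12.3, 9.06 and 5.92 CPM in Mpcoi1 and 10.9, 11.0 and 10.02 CPM in Mpdes6fad5. Again no mutant library reached a Tak-1 library, and the differences were -2.22 ± 0.19 (SE, adjusted p = 1.35e-05) and -1.97 ± 0.19 (SE, adjusted p = 3.14e-05).

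Among the enzymes of oxylipin synthesis, the lipoxygenase gene MpLOX4 was the member. It had 19.1, 22.5 and 25.6 CPM in mock Tak-1 libraries, 7.03, 7.55 and 5.79 CPM in mock Mpcoi1, and 7.44, 4.52 and 3.86 CPM in mock Mpdes6fad5. Once wounded, plants had 394, 331 and 204 CPM in wounded Tak-1, 3.54, 4.78 and 2.71 CPM in wounded Mpcoi1, and 23.6, 19.7 and 30.5 CPM in wounded Mpdes6fad5. Wounded Tak-1 was far above its mock level, wounded Mpdes6fad5 reached about the level of mock Tak-1, and wounded Mpcoi1 lay at or below its own mock level. The wounded differences from Tak-1 were -6.02 ± 0.24 (SE, adjusted p = 2.92e-08) in Mpcoi1 and -3.57 ± 0.24 (SE, adjusted p = 4.29e-06) in Mpdes6fad5 by limma. MpLOX4 was 1 member among the 26 tested genes of a list of jasmonate and oxylipin genes, which holds the receptor, JAZ, its corepressors, the mutated MpDES6 and MpFAD5, lipoxygenases, CYP74 enzymes, MpGH3A and hormone-oxidising CYP94 genes. Of those 26 genes, 14 were lower and 2 higher in wounded Mpcoi1 than in wounded Tak-1, and 13 were lower and 3 higher in wounded Mpdes6fad5, beside 9.5% and 22.5% of all genes lower. The mutated MpCOI1 is among the 14, and the mutated MpDES6 and MpFAD5 are among the 13. None of the others met the rule in the mock libraries.

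MpLOX4 stands between members in the order of identifiers: Mp5g21660, MpLOX4 and Mp5g21760 lie within 11 listed genes. Mp5g21760 had 3.78, 6.30 and 3.05 CPM in mock Tak-1 libraries, 0.680, 0.609 and 0.709 CPM in mock Mpcoi1, and 0.0378, 0.178 and 0.283 CPM in mock Mpdes6fad5, and after wounding it had 624, 526 and 418 CPM in wounded Tak-1, 0.256, 1.24 and 0.311 CPM in wounded Mpcoi1, and 61.3, 63.1 and 61.1 CPM in wounded Mpdes6fad5. Wounded Mpcoi1 stayed near its mock level, and wounded Mpdes6fad5 lay between the others without overlap. Its difference of -8.39 ± 0.20 (SE, adjusted p = 4.43e-10) was the largest decrease among the members in wounded Mpcoi1, beside -3.04 ± 0.20 (SE, adjusted p = 4.07e-06) in wounded Mpdes6fad5. Mp5g21660 differed by -1.81 ± 0.47 (SE, adjusted p = 0.0262) and -3.05 ± 0.47 (SE, adjusted p = 5.89e-04), so here the lower mean was in Mpdes6fad5. Its Mpcoi1 call was not made with no filter on low values, with robust variance estimates, or without replicate 1 or 3 of wounded Mpcoi1 or replicate 1 or 2 of wounded Tak-1.

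**Figure D3:**
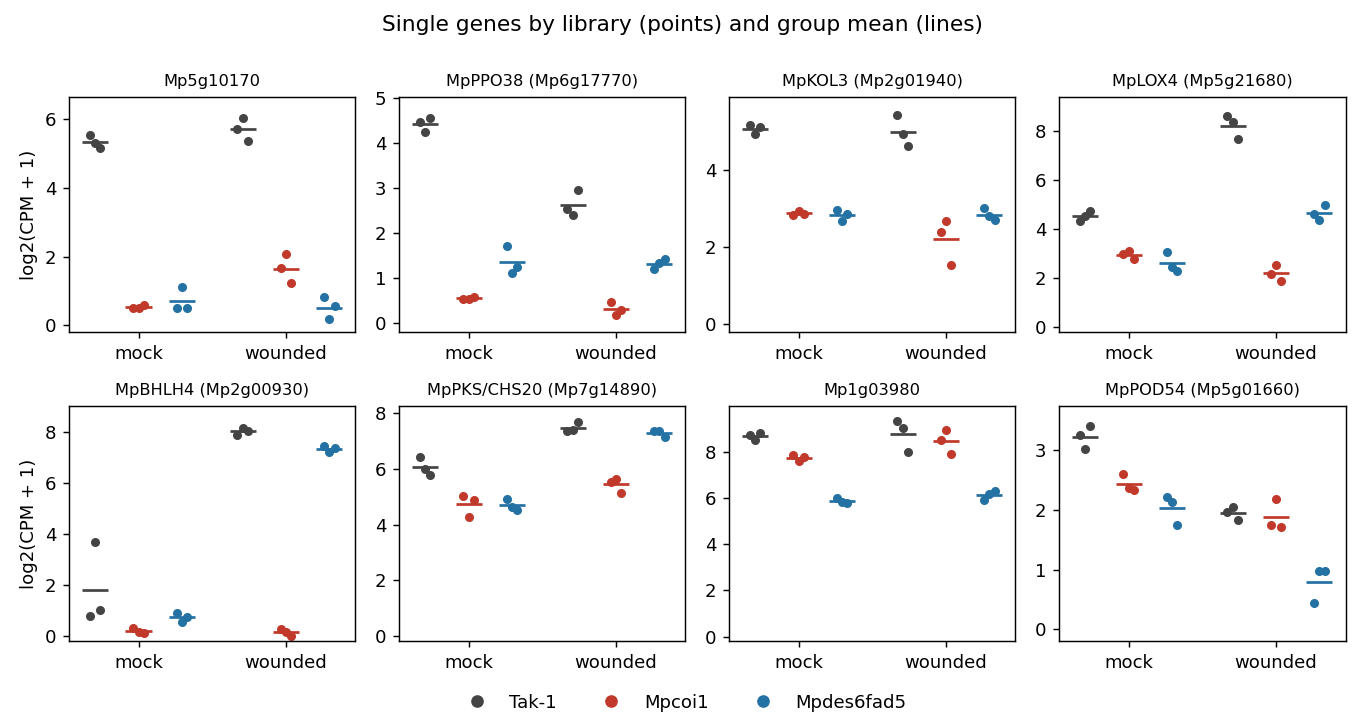
log2(CPM + 1) of 8 members in each library (points) with the group means (lines), mock at left and wounded at right in each panel, coloured by genotype. Mp5g10170, MpPPO38 and MpKOL3 are low in both mutants in both states, MpLOX4 is highest in wounded Tak-1, MpBHLH4 is near 0 in Mpcoi1 in both states, MpPKS/CHS20 is low in wounded Mpcoi1, and Mp1g03980 and MpPOD54 are low in wounded Mpdes6fad5.

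The regulators among the members were 6 of the 169 tested transcription factor genes with a symbol of the chosen families: the basic helix-loop-helix genes MpBHLH3 and MpBHLH4, the AP2/ERF gene MpERF15, the WRKY gene MpWRKY14, the MYB gene MpGCAM1, which is known for its part in gemma cup formation, and the LOB-domain gene MpASLBD11. In the wounded libraries 5 of the 6 were lower in Mpcoi1 and 4 of the 6 in Mpdes6fad5, while the whole list of 169 had 28 lower and 12 higher in Mpcoi1 and 40 lower and 39 higher in Mpdes6fad5. MpBHLH3 had 10.9, 13.0 and 8.50 CPM in mock Tak-1 libraries, 4.34, 3.25 and 3.29 CPM in mock Mpcoi1, and 2.98, 3.92 and 3.48 CPM in mock Mpdes6fad5. After wounding it had 82.0, 90.2 and 102 CPM in wounded Tak-1, 2.26, 2.61 and 6.27 CPM in wounded Mpcoi1, and 37.3, 32.6 and 33.2 CPM in wounded Mpdes6fad5. The order Tak-1, Mpdes6fad5, Mpcoi1 held with no overlap after wounding, with differences of -4.39 ± 0.24 (SE, adjusted p = 4.42e-07) in Mpcoi1 and -1.38 ± 0.24 (SE, adjusted p = 0.00126) in Mpdes6fad5.

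MpBHLH4, listed beside MpBHLH3 with 1 gene between them, was a member through a single library. Its mock Tak-1 values were 0.724, 11.9 and 1.02 CPM, beside 0.264, 0.122 and 0.0834 CPM in mock Mpcoi1 and 0.868, 0.463 and 0.706 CPM in mock Mpdes6fad5, and without mock Tak-1 replicate 2 it no longer met the rule. In the wounded state the gene had 239.6, 289.9 and 266 CPM in wounded Tak-1, 0.213, 0.133 and 0 CPM in wounded Mpcoi1, and 175, 150.2 and 165 CPM in wounded Mpdes6fad5. Wounded Mpcoi1 had almost no reads, and wounded Mpdes6fad5 lay below every wounded Tak-1 library but within the same order of magnitude. The wounded differences were -7.90 ± 0.10 (SE, adjusted p = 6.93e-12) in Mpcoi1 and -0.69 ± 0.10 (SE, adjusted p = 3.64e-04) in Mpdes6fad5. The second was not called when all 18 libraries entered the fit, with a constant of 0.1 CPM or on the deposited values.

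MpERF15, described for Marchantia as a factor that acts with oxylipin signalling in regeneration after wounding, had 3.05, 9.63 and 2.26 CPM in mock Tak-1 libraries, 1.28, 1.54 and 1.63 CPM in mock Mpcoi1, and 1.36, 2.00 and 1.22 CPM in mock Mpdes6fad5. Mock Tak-1 replicate 2 was the highest of these, and without it the gene left the set. In the wounded libraries it had 136, 148 and 139.6 CPM in Tak-1, 20.3, 23.7 and 20.1 CPM in Mpcoi1 and 114, 105 and 118 CPM in Mpdes6fad5, with differences of -2.67 ± 0.08 (SE, adjusted p = 1.79e-09) and -0.33 ± 0.08 (SE, adjusted p = 0.00632). The second was not called with all 18 libraries in the fit or when scaled by library totals. MpGCAM1 stood near the counting limit, at 0.517, 1.40 and 0.708 CPM in mock Tak-1 with no read in mock Mpcoi1, and was lower in wounded Mpcoi1 by -1.84 ± 0.24 (SE, adjusted p = 4.64e-04) but not called in wounded Mpdes6fad5 at -0.46 ± 0.24 (SE, adjusted p = 0.147). MpWRKY14 was lower in wounded Mpcoi1 at -0.74 ± 0.21 (SE, adjusted p = 0.0378), a call lost with robust variance estimates, with no filter or without any single wounded library other than Tak-1 replicate 3 and Mpcoi1 replicate 2 (-0.47 without Mpcoi1 replicate 3), and its Mpdes6fad5 difference was -0.44 ± 0.21 (SE, adjusted p = 0.113). MpASLBD11 was lower in wounded Mpdes6fad5 at -0.84 ± 0.17 (SE, adjusted p = 0.00307), with -0.54 ± 0.17 (SE, adjusted p = 0.0612) in Mpcoi1.

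The 9 members of phenolic synthesis were 4 phenylalanine ammonia-lyase genes, whose enzyme opens the phenylpropanoid route (MpPAL3, MpPAL6, MpPAL7 and MpPAL-like2), and 5 of the polyketide synthase and chalcone synthase family, whose enzymes build flavonoid and related skeletons (MpPKS/CHS12, 15, 17, 18 and 20), out of 39 tested genes of the family list. In wounded Mpcoi1 7 of the 9 were lower than in Tak-1, and in wounded Mpdes6fad5 1 of the 9 was, MpPKS/CHS15. Without wounded Tak-1 replicate 3, MpPAL3 and MpPKS/CHS12 were also called lower in Mpcoi1, at -1.02 and -0.58 (limma, adjusted p = 0.0142 and 0.0161). Over the 39 genes of the list, 19 were lower and 0 higher in wounded Mpcoi1, and 8 were lower and 9 higher in wounded Mpdes6fad5. Summed over the 9 genes, mock Tak-1 had 203, 178 and 123 CPM, mock Mpcoi1 76.3, 47.5 and 63.5 CPM, and mock Mpdes6fad5 75.1, 65.9 and 58.2 CPM. After wounding the sums were 386, 400 and 709 CPM in Tak-1, 124, 136 and 114 CPM in Mpcoi1, and 489, 475 and 427 CPM in Mpdes6fad5. The wounded Mpdes6fad5 sums thus lay within the range of wounded Tak-1, and all 3 wounded Mpcoi1 sums lay below both. With wounded Tak-1 replicate 3 left out, the other 2 Tak-1 sums lay below all 3 Mpdes6fad5 sums.

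For MpPKS/CHS20 wounded Mpcoi1 was again far below both other groups, while wounded Mpdes6fad5 lay near or below the lower wounded Tak-1 libraries. It had 84.3, 62.2 and 54.4 CPM in mock Tak-1 libraries, 32.0, 18.2 and 28.2 CPM in mock Mpcoi1, and 29.4, 23.6 and 22.3 CPM in mock Mpdes6fad5. The wounded libraries held 165, 166 and 206 CPM in wounded Tak-1, 45.7, 48.7 and 34.6 CPM in wounded Mpcoi1, and 164, 165 and 142 CPM in wounded Mpdes6fad5. The difference from wounded Tak-1 was -2.04 ± 0.13 (SE, adjusted p = 1.29e-06) in Mpcoi1, and -0.19 ± 0.13 (SE, adjusted p = 0.265) in Mpdes6fad5, which was not called. MpPKS/CHS15 had 157, 154 and 143 CPM in wounded Tak-1, 62.9, 71.7 and 48.8 CPM in wounded Mpcoi1 and 110.0, 112 and 98.9 CPM in wounded Mpdes6fad5, with differences of -1.31 ± 0.12 (SE, adjusted p = 2.09e-05) and -0.50 ± 0.12 (SE, adjusted p = 0.00643). For MpPKS/CHS17 the wounded libraries had 9.12, 8.46 and 22.2, 0.128, 0.221 and 0.133 and 11.8, 7.32 and 9.01 CPM in the same order of groups, with differences of -3.49 ± 0.30 (SE, adjusted p = 1.38e-05) and -0.35 ± 0.30 (SE, adjusted p = 0.361). Wounded Mpcoi1 was the lowest group without overlap for each of these genes.

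Several genes of the group rested on Tak-1 replicates that disagreed. MpPKS/CHS18 had 15.9, 18.9 and 1.73 CPM in mock Tak-1 libraries, and 20.4, 30.1 and 189 CPM in wounded Tak-1, so that replicate 3 was the lowest of the mock and the highest of the wounded libraries. MpPAL3 had 6.15, 9.87 and 0.133 CPM and 2.11, 3.44 and 26.0 CPM there, and MpPAL7 6.57, 6.66 and 0.664 CPM and 8.43, 10.1 and 43.5 CPM. The wounded difference of MpPKS/CHS18 was -3.28 ± 0.71 (SE, adjusted p = 0.00999) in Mpcoi1, a call lost with voom, robust variance estimates or no filter, and 1.00 ± 0.71 (SE, adjusted p = 0.271) in Mpdes6fad5. For MpPAL3 it was -1.97 ± 0.63 (SE, adjusted p = 0.0601) and 1.06 ± 0.63 (SE, adjusted p = 0.194), and with replicate number as a block the Mpcoi1 difference, still -1.97, was called. The MpPAL3 difference in Mpcoi1 was also called without wounded Tak-1 replicate 1, at -2.58, and without replicate 3, at -1.02 (adjusted p = 0.0203 and 0.0142). Without wounded Tak-1 replicate 3, the 7 members higher in wounded Mpdes6fad5 than in Tak-1 were MpPAL3 (2.01), MpPKS/CHS18 (1.96), Mp5g16220 (1.60), MpPAL7 (1.37), MpPKS/CHS12 (1.35), Mp5g16770 (1.21) and MpPAL6 (0.65), as log2 differences. All 7 had overlapping mock libraries between Tak-1 and a mutant. None of the 7 met the rule without mock Tak-1 replicate 2.

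Enzymes that oxidise phenolics formed the largest family. Class III peroxidases, secreted enzymes that oxidise phenolics with hydrogen peroxide and act in cell walls, gave 15 members of 121 tested genes, and in the wounded libraries 12 of the 15 were lower in Mpdes6fad5 (22.5% of all genes) and 5 in Mpcoi1 (9.5%). Over the 121 peroxidase genes the calls went both ways, with 29 lower and 25 higher in Mpdes6fad5 and 15 lower and 14 higher in Mpcoi1. Calls of the 15 members moved with single libraries left out. The Mpcoi1 calls of MpPOD105 and MpPOD137 were lost without most single wounded libraries. The Mpdes6fad5 calls of MpPOD135 and MpPOD137 were lost without replicate 1 or 2 of wounded Tak-1 or of wounded Mpdes6fad5. Without wounded Tak-1 replicate 3, MpPOD58 and MpPOD135 were called lower in Mpcoi1 at -0.78 and -1.10 (limma, adjusted p = 0.0484 and 0.00636). MpPOD57 was then called lower in Mpdes6fad5. The summed level of the 15 members alone was 223, 170.3 and 229 CPM in mock Tak-1 libraries, 99.9, 86.3 and 80.1 CPM in mock Mpcoi1, and 88.9, 72.5 and 65.2 CPM in mock Mpdes6fad5. After wounding it was 138, 113 and 73.9 CPM in Tak-1, 67.6, 71.3 and 45.2 CPM in Mpcoi1, and 35.4, 46.0 and 52.2 CPM in Mpdes6fad5. The wounded Tak-1 libraries thus stood below the mock ones, and the wounded mutants lay below all wounded Tak-1 libraries, with Mpcoi1 close to wounded Tak-1 replicate 3.

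MpPOD54 had 8.48, 7.10 and 9.60 CPM in mock Tak-1 libraries, 5.06, 4.14 and 4.04 CPM in mock Mpcoi1, and 3.66, 3.38 and 2.35 CPM in mock Mpdes6fad5. After wounding it had 2.90, 3.11 and 2.55 CPM in wounded Tak-1, 2.35, 3.54 and 2.27 CPM in wounded Mpcoi1, and 0.354, 0.973 and 0.967 CPM in wounded Mpdes6fad5, so that wounded Mpcoi1 overlapped Tak-1 and wounded Mpdes6fad5 lay below both. The differences were -0.07 ± 0.19 (SE, adjusted p = 0.859) and -1.15 ± 0.19 (SE, adjusted p = 8.37e-04). MpPOD90 followed the same order, with -0.07 ± 0.20 (SE, adjusted p = 0.851) in Mpcoi1 and -0.93 ± 0.20 (SE, adjusted p = 0.00365) in Mpdes6fad5. MpPOD34 and MpPOD114 were lower in both mutants, MpPOD34 by -1.30 ± 0.23 (SE, adjusted p = 0.00354) and -0.87 ± 0.23 (SE, adjusted p = 0.0122), and MpPOD114 by -1.22 ± 0.19 (SE, adjusted p = 0.00162) and -1.38 ± 0.19 (SE, adjusted p = 3.18e-04). MpPOD138 spread over the Tak-1 replicates, with 49.1, 42.2 and 15.6 CPM in wounded Tak-1, 15.0, 17.8 and 8.27 CPM in wounded Mpcoi1, and 9.47, 13.9 and 17.6 CPM in wounded Mpdes6fad5, and its differences were -1.23 ± 0.40 (SE, adjusted p = 0.063) and -1.21 ± 0.40 (SE, adjusted p = 0.0305). The Mpdes6fad5 call was lost with robust variance estimates, no filter, or without replicate 1 or 2 of wounded Tak-1 or of wounded Mpdes6fad5. Without wounded Tak-1 replicate 3 the Mpcoi1 difference was -1.73 and was called (adjusted p = 0.00117), as it was at -1.23 with the replicate block in a fit of the 6 wounded Tak-1 and Mpcoi1 libraries (adjusted p = 0.00125). With replicate number as a block, the Mpcoi1 call of MpPOD81 (-0.63 ± 0.19 (SE, adjusted p = 0.0443) without the block) was lost at an adjusted p of 0.065, and MpPOD136 (-0.95 ± 0.35 (SE, adjusted p = 0.096) without it) was called at 0.0295. Without wounded Tak-1 replicate 3, MpPOD81 was not called (adjusted p = 0.0765), and MpPOD136 was called at -1.18 (adjusted p = 0.0354). The MpPOD81 call was also lost without each other wounded library but Mpcoi1 replicate 2.

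Polyphenol oxidases, copper enzymes that turn phenols into quinones, gave 3 members of 38 tested, the neighbours MpPPO38, MpPPO39 and MpPPO40. Over the 38 genes, 10 were lower and 1 higher in wounded Mpcoi1, and 6 were lower and 13 higher in wounded Mpdes6fad5. MpPPO38 had 21.2, 18.1 and 22.7 CPM in mock Tak-1 libraries, 0.453, 0.447 and 0.500 CPM in mock Mpcoi1, and 2.27, 1.18 and 1.37 CPM in mock Mpdes6fad5. In the wounded state the gene had 4.80, 4.28 and 6.78 CPM in wounded Tak-1, 0.384, 0.133 and 0.222 CPM in wounded Mpcoi1, and 1.28, 1.53 and 1.68 CPM in wounded Mpdes6fad5. Wounded Tak-1 was below mock Tak-1, and both mutants lay below it in each state, Mpcoi1 below Mpdes6fad5. The wounded differences were -2.32 ± 0.17 (SE, adjusted p = 3.79e-06) and -1.31 ± 0.17 (SE, adjusted p = 1.76e-04) for MpPPO38 and -1.74 ± 0.16 (SE, adjusted p = 2.04e-05) and -1.18 ± 0.16 (SE, adjusted p = 2.13e-04) for MpPPO40. MpPPO39 was under 1 CPM in every wounded library and was called in neither, at -0.41 ± 0.20 (SE, adjusted p = 0.211) and -0.30 ± 0.20 (SE, adjusted p = 0.257). MpExpansin25, of a family that loosens cell walls, was lower in both at -1.60 ± 0.14 (SE, adjusted p = 1.73e-05) and -0.86 ± 0.14 (SE, adjusted p = 8.18e-04).

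**Figure D4:**
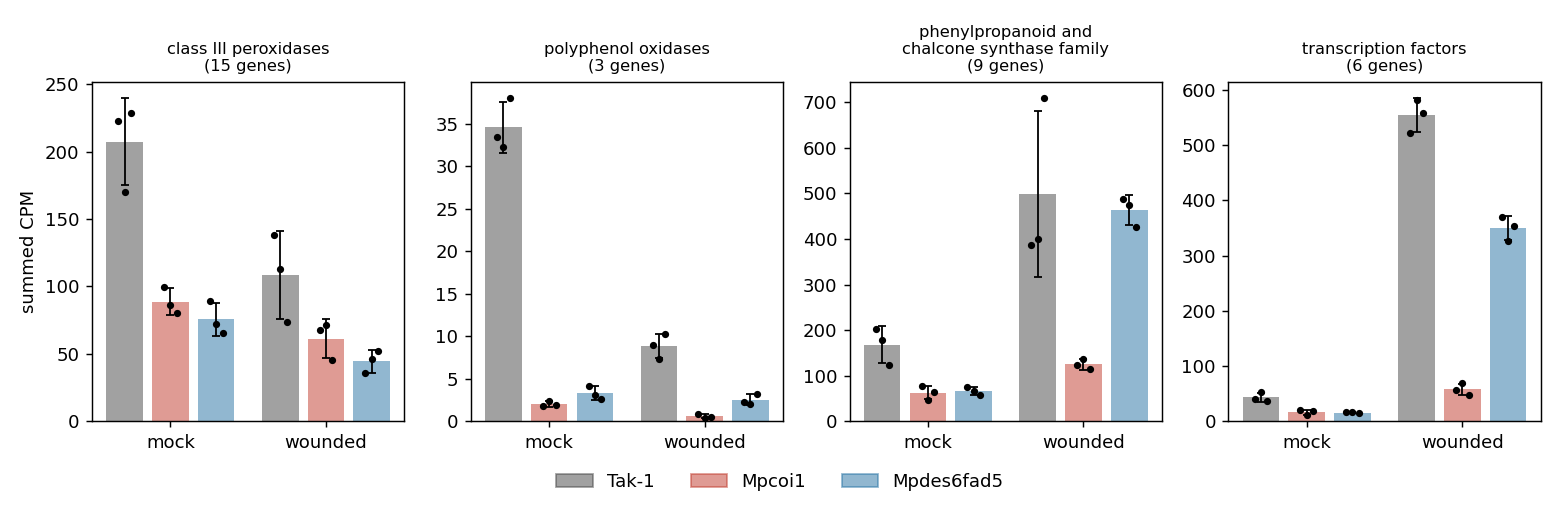
Summed CPM of the members of 4 families in each group (bars: mean, error bars: SD of 3 libraries, points: libraries), mock at left and wounded at right in each panel. Peroxidases and polyphenol oxidases are lower in wounded than in mock Tak-1, while phenylpropanoid and transcription factor sums are higher after wounding in all 3 genotypes, and after wounding they are lowest in Mpcoi1.

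Of the terpenoid genes, MpKOL3, whose symbol marks it as kaurene oxidase-like, had 35.5, 29.8 and 33.8 CPM in mock Tak-1 libraries, 6.20, 6.70 and 6.34 CPM in mock Mpcoi1, and 6.91, 5.45 and 6.31 CPM in mock Mpdes6fad5. The wounded libraries held 42.3, 29.7 and 23.8 CPM in wounded Tak-1, 4.27, 5.44 and 1.91 CPM in wounded Mpcoi1, and 7.08, 6.07 and 5.55 CPM in wounded Mpdes6fad5. It was lower in every mutant library than in every Tak-1 library in both states, with wounded differences of -2.79 ± 0.28 (SE, adjusted p = 4.63e-05) and -2.15 ± 0.28 (SE, adjusted p = 1.78e-04). MpTPS6 was lower in wounded Mpdes6fad5 at -1.97 ± 0.35 (SE, adjusted p = 0.00144), and its Mpcoi1 difference of -1.12 ± 0.35 (SE, adjusted p = 0.0583) was called at an adjusted p of 0.0273 with replicate number as a block and, at -1.58, without wounded Tak-1 replicate 3 (adjusted p = 9.20e-04). The cytochrome P450 members, 6 of 88 tested, were lower in 2 cases in wounded Mpcoi1 and in 5 in wounded Mpdes6fad5, beside 23 and 29 of all 88. MpCYP707A, of the family that inactivates abscisic acid in flowering plants, had 34.3, 35.1 and 37.8 CPM in wounded Tak-1, 14.5, 11.6 and 16.8 CPM in Mpcoi1 and 29.4, 25.5 and 21.8 CPM in Mpdes6fad5, with differences of -1.28 ± 0.14 (SE, adjusted p = 8.13e-05) and -0.48 ± 0.14 (SE, adjusted p = 0.0162), the second not called when scaled by library totals or without wounded Mpdes6fad5 replicate 3. MpCYP829-like12 was lower in wounded Mpdes6fad5 than in wounded Mpcoi1, with differences from Tak-1 of -2.55 ± 0.38 (SE, adjusted p = 4.36e-04) and -0.52 ± 0.38 (SE, adjusted p = 0.399). Its Mpcoi1 difference without wounded Tak-1 replicate 3 was -0.96 and was called (adjusted p = 0.0394).

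Among transporters the ammonium transporter gene MpAMT2.4 was lower in both wounded mutants, with 6.69, 7.48 and 6.25 CPM in Tak-1, 0.725, 1.02 and 1.56 CPM in Mpcoi1 and 2.83, 2.04 and 4.22 CPM in Mpdes6fad5 and differences of -1.91 ± 0.21 (SE, adjusted p = 9.89e-05) and -0.99 ± 0.21 (SE, adjusted p = 0.00345). MpNPF23, of the nitrate and peptide transporter family, was lower in both at -1.87 ± 0.13 (SE, adjusted p = 2.17e-06) and -1.08 ± 0.13 (SE, adjusted p = 1.04e-04). The aquaporin gene MpXIP was the member with the unadjusted p under 0.05 for a higher level, at 0.54 ± 0.18 (SE, adjusted p = 0.0676) in Mpcoi1, where its wounded libraries lay above those of Tak-1. Without wounded Mpdes6fad5 replicate 3 this difference was called (limma, adjusted p = 0.0441). The O-methyltransferase genes MpOMT8 and MpOMT13 were lower in both mutants, MpOMT8 by -1.10 ± 0.29 (SE, adjusted p = 0.0262) and -1.45 ± 0.29 (SE, adjusted p = 0.00245) and MpOMT13 by -2.15 ± 0.17 (SE, adjusted p = 8.40e-06) and -1.78 ± 0.17 (SE, adjusted p = 3.15e-05). The Mpcoi1 call of MpOMT8 was lost with robust variance estimates, with no filter, or without wounded Mpcoi1 replicate 3 or wounded Tak-1 replicate 1 or 2. Of 5 defence and cupin members out of 105 tested genes, 2 were lower in each wounded mutant, beside 14 of the 105 in Mpcoi1 and 23 in Mpdes6fad5, MpCupin3 among them in Mpcoi1 at -1.59 ± 0.23 (SE, adjusted p = 7.71e-04), with -0.38 ± 0.23 (SE, adjusted p = 0.192) in Mpdes6fad5. MpDIR18, a dirigent gene of the kind whose proteins steer the coupling of phenoxy radicals, was lower in both at -3.73 ± 0.16 (SE, adjusted p = 5.18e-08) and -1.50 ± 0.16 (SE, adjusted p = 5.78e-05). MpDOXC16, of the oxoglutarate-dependent dioxygenases, differed by -3.42 ± 0.24 (SE, adjusted p = 2.84e-06) and -2.98 ± 0.24 (SE, adjusted p = 1.13e-05). The lists of 60 late embryogenesis abundant and dehydrin genes and of 32 glutathione transferase genes held 0 members. Members were 1.04% of all genes tested, so lists of this size could hold 0 by that share.

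Some members were far lower in wounded Mpdes6fad5 than in wounded Mpcoi1. Mp1g03980 had 419, 360.1 and 449.9 CPM in mock Tak-1 libraries, 227, 194 and 220.2 CPM in mock Mpcoi1, and 63.3, 56.2 and 54.4 CPM in mock Mpdes6fad5. After wounding it had 636, 526 and 252 CPM in wounded Tak-1, 363, 489 and 235 CPM in wounded Mpcoi1, and 59.5, 71.6 and 78.5 CPM in wounded Mpdes6fad5. Wounded Mpcoi1 overlapped wounded Tak-1, and wounded Mpdes6fad5 lay below every library of both. The differences were -0.34 ± 0.32 (SE, adjusted p = 0.541) and -2.64 ± 0.32 (SE, adjusted p = 1.37e-04). Without wounded Tak-1 replicate 3 the Mpcoi1 difference was -0.74 and was called. Mp8g10590 had differences of -0.22 ± 0.14 (SE, adjusted p = 0.351) and -2.08 ± 0.14 (SE, adjusted p = 4.29e-06), Mp6g12780 of -0.63 ± 0.33 (SE, adjusted p = 0.237) and -2.61 ± 0.33 (SE, adjusted p = 1.64e-04), and Mp6g17690 of -0.93 ± 0.38 (SE, adjusted p = 0.137) and -3.05 ± 0.38 (SE, adjusted p = 1.63e-04), Mpcoi1 first.

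Levels before and after wounding are described without a test, because the mock libraries chose the members. In Tak-1 41 of the 137 members were at least 1 log2 unit higher after wounding (9.1% of all genes were), in Mpcoi1 17 (7.38%) and in Mpdes6fad5 41 (10.3%). In Tak-1, 18 members were at least 1 log2 unit lower after wounding, against 2.76% of all genes. Of the 41 in Tak-1, 37 also passed that mark in Mpdes6fad5 and 14 in Mpcoi1. How many of all genes that passed it in Tak-1 also did so in each mutant was not counted. The mock mutant levels that chose the members enter these counts too. Mp2g18790 had 0.103, 0.883 and 1.73 CPM in mock and 67.6, 39.3 and 67.1 CPM in wounded Tak-1, while it had 0.0853, 0.0442 and 0.0445 CPM in wounded Mpcoi1 and 0.531, 0.556 and 0.560 CPM in wounded Mpdes6fad5, so that every wounded mutant library stayed below 1 CPM. Mp2g18790 reached the filter on low values only with the wounded Tak-1 libraries. Its wounded differences from Tak-1, -5.76 ± 0.19 (SE) in Mpcoi1 and -5.21 ± 0.19 (SE) in Mpdes6fad5, are therefore a description and carry no test. Mp3g01250, with 65.5, 81.0 and 65.4 CPM in mock and 773, 810.0 and 539 CPM in wounded Tak-1, had 84.9, 90.6 and 55.4 CPM in wounded Mpcoi1 and 445, 434 and 480.1 CPM in wounded Mpdes6fad5.

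Some members lay near each other in the order of identifiers. With neighbours at most 10 places apart in the list, 48 members fell into runs of at least 2, and 30 into the 8 runs of 3 or more. How many such runs another set of 137 genes would give was not counted, so these counts are a description. The longest was the run of 6 on chromosome 4 within 10 listed genes, with MpPAL6, MpPAL7, MpPAL-like2, MpPKS/CHS12, MpPKS/CHS15 and Mp4g14170. Peroxidase genes formed runs of 4 on chromosome 5 (MpPOD54, 55, 57 and 58) and on chromosome 6 (MpPOD135 to MpPOD138), and the 3 polyphenol oxidase genes stood with Mp6g17690 on chromosome 6. Genes within such runs may be close copies, and how reads shared between copies were counted is not stated in the sources used here, so their single values are uncertain. Neighbours did not always share a pattern: wounded Mpcoi1 minus wounded Mpdes6fad5 was 2.12 for Mp6g17690 and -1.004 for MpPPO38. Against wounded Tak-1, Mp6g17690 was called in wounded Mpdes6fad5 alone, while MpPPO38 was called in both. Without wounded Mpcoi1 replicate 2, Mp6g17690 was also called in Mpcoi1, at -1.46 (limma, adjusted p = 0.00405).

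Marker genes of other cell types were read beside these results. The summed level of 4 oil body cell markers was 80.6 to 98.1 CPM in mock Tak-1, 78.1 to 89.0 CPM in mock Mpcoi1, and 93.2 to 95.4 CPM in mock Mpdes6fad5. After wounding it was 152 to 217 CPM in Tak-1, 86.5 to 90.9 CPM in Mpcoi1 and 137 to 146 CPM in Mpdes6fad5, an order like that of MpBHLH3 and MpLOX4. The order came from MpC1HDZ alone, a transcription factor gene that promotes oil body cells, with 175 ± 36.1 CPM in wounded Tak-1, 71.0 ± 1.80 CPM in wounded Mpcoi1 and 117 ± 4.71 CPM in wounded Mpdes6fad5 (SD, n = 3). The other 3 had lower means in wounded than in mock Tak-1, MpERF13 with 1.82 against 3.41 CPM, MpSYP12B with 3.26 against 5.77 CPM and MpABCG1 with 13.95 against 18.4 CPM. The part of these levels in the results was not tested. Markers of dividing cells, 3 genes, summed to 215 to 232 CPM in mock Tak-1, 212 to 225 CPM in mock Mpcoi1 and 174 to 189 CPM in mock Mpdes6fad5, and the sum was lower after wounding in each genotype. The histone gene MpH1 made up most of it, at 200 ± 8.81 CPM in mock Tak-1 (SD, n = 3). There MpCYCB_1 had 25.5 ± 0.403 CPM and MpCYCB_2 0.109 ± 0.0610 CPM (SD, n = 3). Among the 5 antheridium and sperm markers MpPRM and MpLC7 were at or near 0 in mock Tak-1, while MpDUO1 had 0.673 ± 0.108 CPM, MpGEX2 4.01 ± 0.902 CPM and MpCEN1 60.6 ± 6.44 CPM there (SD, n = 3). After wounding MpDUO1 had 4.06 ± 1.43 CPM in Tak-1, 4.57 ± 1.97 CPM in Mpcoi1 and 4.69 ± 0.886 CPM in Mpdes6fad5 (SD, n = 3). Of the 2 gemma cup markers, MpGCAM1 was a member and was near the counting limit, and MpKAR had 30.3 ± 1.45 CPM in mock Tak-1 (SD, n = 3).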

How the data were processed

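RNA was sequenced from 18 libraries of Marchantia polymorpha, 3 for each of 6 groups. The submitters' processing notes name Trim Galore, HISAT2, HTSeq and edgeR without versions. Genome build, strand setting and the treatment of reads that match several genes are not stated in the sources used here. The deposited values are log2 CPM with a small prior count, in a table of 18 columns matched to the samples by name. CPM was recovered as 2 to the power of the deposited value minus the table's floor of 0.0886 CPM. All values up to 1000 reads were then whole numbers of reads within 0.01, and libraries held 19382332 to 26303510 reads in genes. Of 20574 listed genes, 13220 reached 1 CPM in at least 3 columns and were tested.

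Values were analysed as log2(CPM + 1), which understates the change of weakly expressed genes. The wounded libraries, 9 in all, were fitted in limma 3.58.1 (R 4.3.3) as a cell-means model with no replicate term, using trended eBayes, and p-values were adjusted by Benjamini-Hochberg over all 13220 genes at a threshold of 0.05. The mock libraries chose the members and were not tested; the script was tested on simulated data. Tables and figures used Python 3.11.15, pandas 2.3.3, numpy 2.4.6 and matplotlib 3.10.9. The labels call the replicates independent biological replicates and number them 1 to 3 in each group. Deviations of same-numbered wounded libraries correlated at 0.16, 0.20 and 0.56 between Tak-1 and Mpcoi1, which met a rule of every r above 0.1. Tak-1 replicate 1 correlated with Mpcoi1 replicate 2 at 0.46, and Tak-1 replicate 2 with Mpcoi1 replicate 1 at 0.21. The remaining differently numbered libraries of these groups had negative values. A pairing by number is thus not settled by these values, and no label ties the libraries. The main fit has no replicate term, and the replicate block is an alternative. Between Mpdes6fad5 and Tak-1 the same-numbered values were -0.11, -0.08 and -0.23, and these libraries were not paired.

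Gene symbols came from the RefSeq table of assembly MpTak2_v7.1, which matched 133 of the 137 members and gave 58 a functional symbol; no coordinates were taken from it. The members, the gene lists and the tests were chosen with earlier results of these data known. Genes were named by a rule: the 12 members with the largest mean mock difference, the first 25 with a functional symbol, the 8 largest decreases and 4 largest increases called in each wounded contrast, the 3 members just inside and the 3 genes just outside the threshold, and members of the jasmonate list; the targeted genes and MpJAZ were read as well. The text cites a part of these, and MpERF15, MpGCAM1, MpWRKY14, MpASLBD11, MpPAL6, MpPAL7, MpPAL-like2, MpPKS/CHS12, MpPKS/CHS15, MpPOD34, MpPOD90, MpPOD54, MpNPF23, MpXIP, the O-methyltransferase genes, MpDOXC16, Mp3g01250, Mp4g05930, Mp5g16220, Mp5g16770 and Mp8g10590 were named after their values were seen. MpPOD57, MpPOD105, MpPOD135 and MpPOD137 were also named after their values were seen. Alternatives were constants of 0.1 and 5 CPM, other filters, library totals, median-of-ratios and quantile scaling, robust eBayes, all 18 libraries in one fit, the replicate block, voom on recovered reads, the deposited log2 values and each library left out.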

Additional observations from a re-analysis of the deposited data

Results flagged for a closer look

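The wounded effects of the mutants differed for the genes given here. Each value is the log2(CPM + 1) level in wounded Mpcoi1 minus that in wounded Mpdes6fad5, tested by limma at a Benjamini-Hochberg adjusted p under 0.05 over all genes; a negative value means lower in Mpcoi1. Of the 137 members, 51 were lower in Mpcoi1 (21.0% of all genes were) and 22 higher (20.8%). Those with a name or picked by size are listed by family, with no explanation.

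Among the regulators the difference was -7.21 for MpBHLH4, -3.00 for MpBHLH3, -2.34 for MpERF15 and -1.38 for MpGCAM1. The lipoxygenase gene MpLOX4 differed by -2.45 and the dirigent gene MpDIR18 by -2.23. All 9 members of the phenylpropanoid and chalcone synthase family were lower in Mpcoi1. The ammonia-lyase genes differed by -3.03 for MpPAL3, -3.00 for MpPAL7, -1.90 for MpPAL6 and -1.77 for MpPAL-like2. The synthase genes differed by -4.28 for MpPKS/CHS18, -3.14 for MpPKS/CHS17, -1.93 for MpPKS/CHS12, -1.85 for MpPKS/CHS20 and -0.81 for MpPKS/CHS15.

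Of the 3 polyphenol oxidase members 2 were lower in Mpcoi1, by -1.004 for MpPPO38 and -0.56 for MpPPO40. Of the 15 peroxidase members 5 were higher in Mpcoi1 and 0 lower, while over all 121 peroxidase genes 21 were higher and 20 lower: 1.08 for MpPOD54, 0.86 for MpPOD90, 0.82 for MpPOD55, 0.79 for MpPOD58 and 0.71 for MpPOD18. Cytochrome P450 genes went both ways, at 2.03 for MpCYP829-like12, 0.73 for MpCYP829D1 and -0.80 for MpCYP707A. The transporter genes stood at -0.92 for MpAMT2.4, -0.79 for MpNPF23 and 0.90 for MpXIP. The remaining named genes were MpCupin3 at -1.20, MpCupin82 at -0.62, MpExpansin25 at -0.74 and the glycosyltransferase gene MpUGT36 at 0.71.

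Genes without a symbol that were lower in Mpcoi1 were Mp5g21760 at -5.35, Mp4g03350 at -4.18, Mp3g17580 at -4.04, Mp6g11460 at -3.46, Mp5g12260 at -3.23, Mp2g15440 at -3.02, Mp8g03380 at -0.84, Mp4g05940 at -0.84 and Mp2g18790 at -0.55. Those higher in Mpcoi1 were Mp1g03980 at 2.30, Mp6g17690 at 2.12, Mp6g12780 at 1.98, Mp7g06460 at 1.80 and Mp5g10170 at 1.14. Under the alternatives, the calls of Mp2g18790, Mp4g05940, MpPPO40, MpPOD58, MpCupin82 and MpUGT36 were lost in at least 1 setting that kept all wounded libraries.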

How the results depend on the processing

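The number of members moved most with the rule: 285 at a threshold of -0.5, 71 at -1, 225 with a constant of 0.1 CPM and 55 with 5 CPM; it was 134 to 160 when a mock library was left out. Leaving out a wounded library gave 71 to 109 members lower in Mpcoi1, 85 to 106 lower in Mpdes6fad5, 55 to 90 lower in both, 0 to 7 higher in either, 45 to 54 lower in Mpcoi1 than in Mpdes6fad5 and 16 to 29 higher. The median differences then ran from -1.28 to -1.13 in Mpcoi1 and from -1.08 to -0.90 in Mpdes6fad5. With a mean of at least 5 CPM, 82 members were tested, and the counts were 55, 65, 47, 33 and 14 in the order lower in Mpcoi1, in Mpdes6fad5, in both, Mpcoi1 under and over Mpdes6fad5. A member was called higher (1) with all 18 libraries, with 5 CPM and with library totals. The Mpcoi1 median was -1.59 with 0.1 CPM, -0.67 with 5 CPM, -1.63 on deposited values and -1.79 with voom. The Mpdes6fad5 median was -1.23 with 0.1 CPM and on deposited values, -0.53 with 5 CPM, -0.82 with library totals, -1.02 with the mean of 5 CPM, -1.12 with quantile scaling and -1.26 with voom. With the replicate block, 95 members were lower in Mpcoi1 (102 in a fit of 6 libraries, added after seeing the data), 99 in Mpdes6fad5 and 74 in both, with 51 under and 25 over Mpdes6fad5. The 133 members that reached the filter without the wounded Tak-1 libraries kept the counts within 1.5 times. Uncalled values near 0 changed sign: Mpcoi1 minus Mpdes6fad5 was 0.0061 for Mp1g03240 with quantile scaling; for Mp6g06320 0.15 with it; for MpPOD138 (Mp6g13550) 0.011 with median-of-ratios and 0.12 with quantile scaling; for MpPPO39 (Mp6g17750) 0.039 with quantile scaling and 0.23 with voom. Depth limits the members under 5 CPM in mock Tak-1, and the cause of these changes was not tested. Over the libraries left out, the sign also changed for MpPOD18 (Mp2g20950) in Mpcoi1 minus Tak-1, -0.075 to 0.17, for MpPKS/CHS17 (Mp4g14450) in Mpdes6fad5 minus Tak-1, -0.58 to 0.063, and in Mpcoi1 minus Mpdes6fad5 for Mp6g06320, -0.42 to 0.088, MpPOD138, -0.24 to 0.28, and MpPPO39, -0.24 to 0.11.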

Other observations

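Chromosome 5 held 34 of the 137 members (24.8%), where it held 12.1% of the genes tested, and chromosome 1 held 6 members (4.38%) beside 17.4% of the genes tested. Neighbouring members, such as the peroxidase runs, are not independent of each other in this count. Mp7g05640, named after its values were seen, had 215, 264 and 269 CPM in mock and 51.9, 35.8 and 26.7 CPM in wounded Tak-1, and 137, 130.1 and 141 CPM and 127, 112 and 138 CPM in mock Mpcoi1 and mock Mpdes6fad5.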
